A study of Drosophila melanogaster with 9 samples.

Results

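The synaptic vesicle release machinery is described here by 10 genes, taken by symbol from the 15340 genes of the table: *Syt1*, *Syt4* and *Sytbeta*, *n-syb*, *Syx1A* and *Snap25*, *cpx*, *brp*, *Rim* and *unc-13*. They stand for vesicle proteins, SNAREs and active zone proteins, were chosen with earlier results of these data known, and 10 of 10 were present and passed the filter on low values. In the annotation *Syt1* lies on chromosome arm 2L, *Sytbeta*, *n-syb* and *Snap25* on 3L, *Syt4*, *Syx1A*, *Rim* and *cpx* on 3R, *brp* on 2R and *unc-13* on chromosome 4. RNA came from ventral nerve cords (VNCs) of wandering, late third-instar *Drosophila* larvae of 3 genotypes, with 3 libraries each. Each animal carried *nab-GAL4*, *UAS-prosperoRNAi* and *UAS-dicer2*. The GAL4 trap in *nab* is active in all neuroblasts (NBs), the neural stem cells, so that *prospero* (*pros*) was knocked down there, and the labels describe tumorigenic NBs in each genotype. Besides the genotype with no further transgene, *nab>prosRNAi*, there was 1 with *UAS-chinmoRNAi* (*nab>prosRNAi, chinmoRNAi*) and 1 with *UAS-chinmoFL* (*nab>prosRNAi, chinmo*). Crosses spent 7 days at 18°C and 3 days at 29°C, and a library pooled 57 to 79, 58 to 78 and 51 to 82 brains in *nab>prosRNAi*, *nab>prosRNAi, chinmoRNAi* and *nab>prosRNAi, chinmo*, respectively. VNCs without *pros* RNAi were not analysed here, and because whole VNCs were used, each value mixes NBs, neurons, glia and attached tissue.

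A neuron releases transmitter when a vesicle fuses with the plasma membrane at the active zone. Fusion is driven by the SNAREs: the vesicle protein n-Syb pairs with Syntaxin 1A and Snap25 on the target membrane, Synaptotagmin 1 senses the calcium that enters with an action potential, and Complexin holds the partly assembled complex. At the fly active zone Bruchpilot, the ELKS/CAST homologue, builds the dense projection, Rim links vesicles to calcium channels, and Unc-13 primes vesicles for fusion. NBs and their tumors do not form synapses, and release genes are commonly read as signs of mature neurons.

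The deposited values are normalized counts, reads on a gene divided by a size factor per library. They came from 30677075 to 43415151 reads on genes per library, and no release gene had fewer than 406 reads in any library, so counting error was small beside the spread between libraries. *chinmo* itself had 4518 to 6330 normalized counts in *nab>prosRNAi, chinmoRNAi*, 8190 to 8819 in *nab>prosRNAi* and 71836 to 89792 in *nab>prosRNAi, chinmo*, where reads of the transgene cannot be told from those of the gene. The genotypes thus form 2 steps of *chinmo* RNA. *elav*, the pan-neuronal marker, went the other way, with 10896 to 14504, 7159 to 8408 and 4234 to 4676 normalized counts in the same order, and *mira*, a NB marker, had 28201 to 34418, 54559 to 61797 and 35607 to 49209. *pros*, the target of RNAi in each genotype, also stepped down, with 31510 to 42387, 15859 to 19997 and 8607 to 10751. The genotypes thus differed in the RNA of both targeted genes. Whether the *pros* difference bore on the release genes was not tested. Replicate C stood apart from A and B in *nab>prosRNAi* and *nab>prosRNAi, chinmo*, as described below.

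Release genes were lower at the higher *chinmo* levels. From *nab>prosRNAi, chinmoRNAi* to *nab>prosRNAi, chinmo*, 8 of 10 fell, by between 1.18 on the log2 scale for *cpx* and 2.13 for *Syt4*, while *Syx1A* kept 96.3% of its mean level and *unc-13* missed the threshold. Across this full range the background was 22.7% of 11586 genes tested that fell. The first step ran from *nab>prosRNAi, chinmoRNAi* to *nab>prosRNAi*, and 7 of 10 genes fell there, against 17.9% of all genes. The second step ran from *nab>prosRNAi* to *nab>prosRNAi, chinmo*, and 3 of 10 fell, against 8.26%. These calls are Benjamini-Hochberg adjusted p-values under 0.05 from limma on log2(value + 1), adjusted over all genes tested. The median change of the 10 genes was -0.73 and -0.84 in the successive steps and -1.59 over the full range, beside -0.05, -0.02 and -0.03 for all genes. The 3 comparisons share libraries and are not independent of each other. The count in the first step was 3 of 10 without replicate A or B of *nab>prosRNAi* or of *nab>prosRNAi, chinmoRNAi*, and that in the second step was 0 without replicate B of *nab>prosRNAi* and 1 without replicate C of *nab>prosRNAi* or replicate A or C of *nab>prosRNAi, chinmo*. Over the full range it stayed between 7 and 9. The shares of all genes given above belong to the fits with no library left out. Whether the lower counts were particular to the release genes was not tested.

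**Figure D1:**
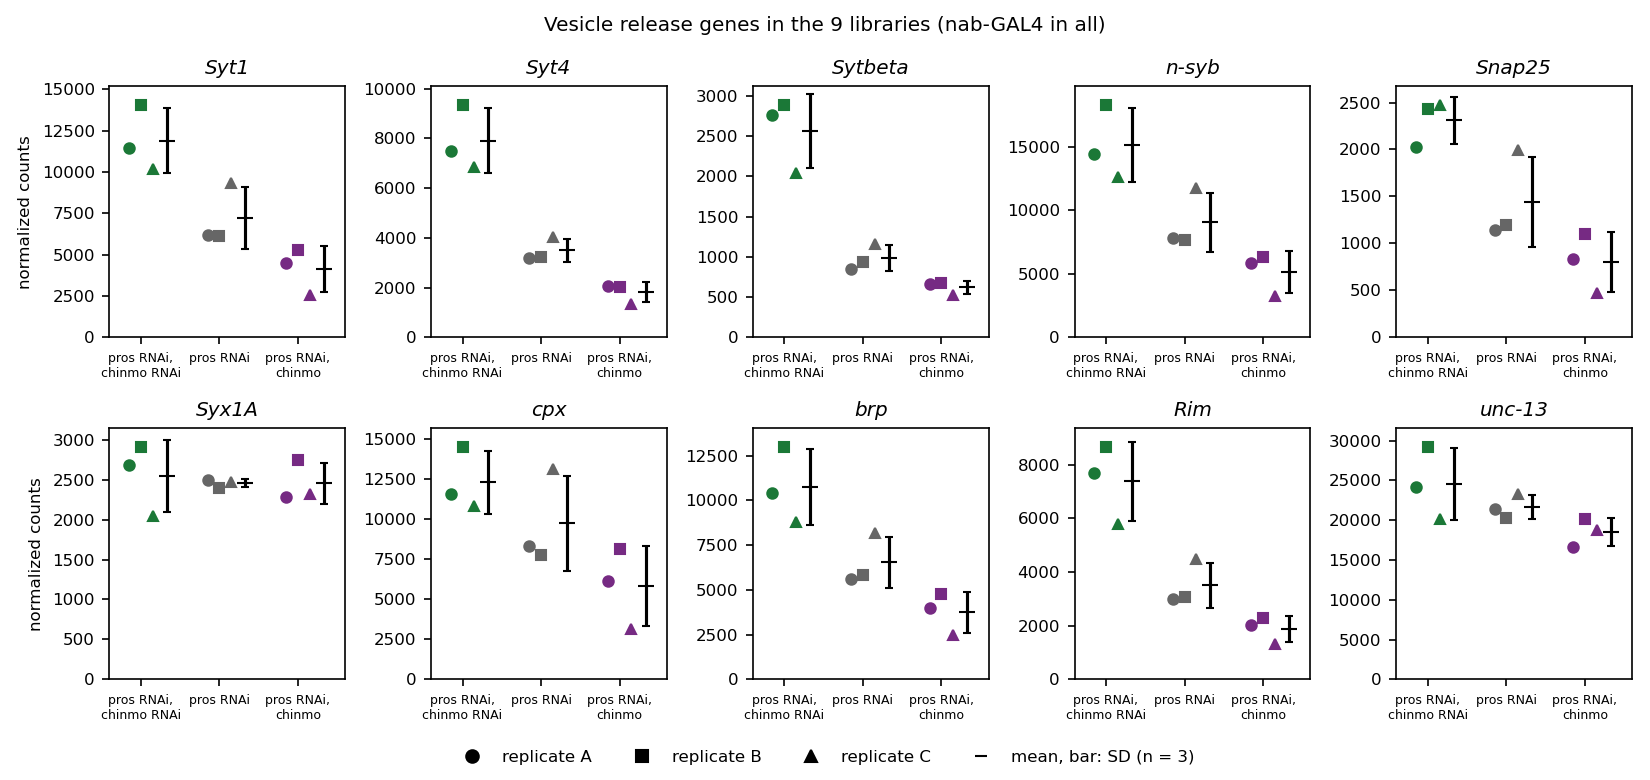
Normalized counts (y axis, from 0) of the 10 release genes in the 9 libraries, by genotype (x axis, *nab-GAL4* in all). Points are libraries, with replicates A, B and C as circle, square and triangle, and the black bar is the mean with its SD (n = 3). Of the 10 genes, 8 step down from left to right, *unc-13* is less steep and *Syx1A* stays level, and replicate C is the highest library of *nab>prosRNAi* in 9 genes and the lowest of *nab>prosRNAi, chinmo* in 8.

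The 3 synaptotagmin genes encode membrane proteins of vesicles. *Syt1*, which encodes the sensor for fast release, had 11435, 14085 and 10200 normalized counts in replicates A, B and C of *nab>prosRNAi, chinmoRNAi*, 6177, 6139 and 9370 in *nab>prosRNAi*, and 4513, 5293 and 2580 in *nab>prosRNAi, chinmo*. Its genotypes did not overlap in either step, although replicate C of *nab>prosRNAi* came close to the lowest *chinmoRNAi* library. *Syt1* fell by 0.74 in the first step (SE 0.195, limma adjusted p = 0.0244) and by 1.58 over the full range (SE 0.267, adjusted p = 0.00314), a 2.88-fold difference in means, and the second step, -0.84, did not pass (SE 0.289, adjusted p = 0.0861).

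*Syt4*, whose protein in flies also acts on the muscle side of the synapse, in signals sent back to the nerve terminal, had 7492, 9353 and 6850 normalized counts in *nab>prosRNAi, chinmoRNAi*, 3196, 3234 and 4043 in *nab>prosRNAi*, and 2081, 2015 and 1354 in *nab>prosRNAi, chinmo*. The 3 genotypes were well separated, with the lowest library of each genotype above the highest of the next. It fell by 1.17 (SE 0.149, limma adjusted p = 0.00145) and then by 0.96 (SE 0.180, adjusted p = 0.0159), and by 2.13 in all (SE 0.195, adjusted p = 0.000339). The mean was 4.35-fold higher in *nab>prosRNAi, chinmoRNAi* than in *nab>prosRNAi, chinmo*, the largest ratio among the 10 genes.

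*Sytbeta*, a further member of the family, had 2767, 2892 and 2043 normalized counts in *nab>prosRNAi, chinmoRNAi*, 854, 939 and 1165 in *nab>prosRNAi*, and 664, 674 and 525 in *nab>prosRNAi, chinmo*. Most of its drop lay in the first step, and here too no genotypes overlapped. The first step was -1.38 (SE 0.172, limma adjusted p = 0.00139), the second -0.66 (SE 0.152, adjusted p = 0.0292) and the full range -2.04 (SE 0.171, adjusted p = 0.000261). Of the 10 genes it had the largest difference between the steps, 0.71 (SE 0.297, 95% interval 0.045 to 1.38), which did not pass (limma adjusted p = 0.195).

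Among the SNAREs, *n-syb* and *Snap25* fell together and *Syx1A* did not. *n-syb*, the neuronal synaptobrevin, had 14446, 18320 and 12659 normalized counts in *nab>prosRNAi, chinmoRNAi*, 7811, 7650 and 11726 in *nab>prosRNAi*, and 5839, 6333 and 3280 in *nab>prosRNAi, chinmo*. It fell by 0.75 in the first step (SE 0.203, limma adjusted p = 0.0260) and by 1.60 over the full range (SE 0.263, adjusted p = 0.00283), and the second step of -0.84 missed the threshold (SE 0.278, adjusted p = 0.0783). Its libraries followed those of *Syt1* closely, with the same libraries high and low in each genotype.

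*Snap25* had 2025, 2434 and 2477 normalized counts in *nab>prosRNAi, chinmoRNAi*, 1139, 1196 and 1995 in *nab>prosRNAi*, and 835, 1100 and 470 in *nab>prosRNAi, chinmo*. Replicate C of *nab>prosRNAi* lay just below the lowest *chinmoRNAi* library, and the second step was separated by a narrow gap between 1139 and 1100. It fell by 0.72 in the first step (SE 0.216, limma adjusted p = 0.0374), and its full-range change was -1.61 (SE 0.291, adjusted p = 0.00416). The second step was -0.88 (SE 0.345, adjusted p = 0.118).

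*Syx1A*, which encodes the plasma membrane syntaxin and is also used outside neurons, had 2686, 2914 and 2042 normalized counts in *nab>prosRNAi, chinmoRNAi*, 2500, 2398 and 2475 in *nab>prosRNAi*, and 2288, 2748 and 2322 in *nab>prosRNAi, chinmo*. All 3 genotypes overlapped. The change was -0.04 in the first step (95% interval -0.36 to 0.29, limma adjusted p = 0.868), -0.01 in the second (-0.20 to 0.18, adjusted p = 0.957) and -0.04 over the full range (-0.41 to 0.32, adjusted p = 0.855). A drop of the size seen in the other SNAREs lies outside the full-range interval, but a smaller one does not. In a later annotation than that of dm3, the build used by the authors, 447 exon bases of *Syx1A* (10.73% of the gene) are shared on the same strand with *eIF4EHP*, a translation repressor gene, so that part of its reads could not be assigned by union counting.

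*cpx*, the gene of Complexin, varied widely between replicates. It had 11533, 14510 and 10820 normalized counts in *nab>prosRNAi, chinmoRNAi*, 8309, 7754 and 13092 in *nab>prosRNAi*, and 6122, 8138 and 3155 in *nab>prosRNAi, chinmo*. Replicate C of *nab>prosRNAi* was above 2 of the 3 *chinmoRNAi* libraries, and neighbouring genotypes overlapped in both steps. Only the full range passed, at -1.18 (SE 0.326, limma adjusted p = 0.0236), and the steps were -0.37 (SE 0.213, adjusted p = 0.231) and -0.81 (SE 0.361, adjusted p = 0.159).

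Of the active zone genes, *brp* had 10392, 13005 and 8800 normalized counts in *nab>prosRNAi, chinmoRNAi*, 5600, 5835 and 8191 in *nab>prosRNAi*, and 3970, 4763 and 2484 in *nab>prosRNAi, chinmo*. No genotypes overlapped, with replicate C of *nab>prosRNAi* again nearest to the *chinmoRNAi* libraries. It fell by 0.72 in the first step (SE 0.191, limma adjusted p = 0.0251) and by 1.55 over the full range (SE 0.253, adjusted p = 0.00272), and the second step was -0.84 (SE 0.255, adjusted p = 0.0644).

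*Rim* had 7682, 8677 and 5788 normalized counts in *nab>prosRNAi, chinmoRNAi*, 2977, 3057 and 4477 in *nab>prosRNAi*, and 2010, 2300 and 1335 in *nab>prosRNAi, chinmo*. The genotypes were separated in both steps, and with *Syt4* and *Sytbeta* it was 1 of the 3 genes that fell in each step. The changes were -1.08 (SE 0.203, limma adjusted p = 0.00638), -0.91 (SE 0.236, adjusted p = 0.0424) and -1.99 over the full range (SE 0.231, adjusted p = 0.000737), a 3.92-fold difference in means.

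*unc-13* had 24196, 29254 and 20165 normalized counts in *nab>prosRNAi, chinmoRNAi*, 21473, 20224 and 23307 in *nab>prosRNAi*, and 16616, 20154 and 18796 in *nab>prosRNAi, chinmo*. It overlapped in the first step, and elsewhere its genotypes were only just separated, by 20224 against 20154 in the second step and 20165 against 20154 over the full range. The changes of -0.17 (SE 0.155, limma adjusted p = 0.459), -0.23 (SE 0.090, adjusted p = 0.120) and -0.39 (95% interval -0.76 to -0.024, adjusted p = 0.0822) did not pass. Antisense genes cover parts of its exons, the largest of them, *asRNA:CR43425*, 15.61%, and counting was by strand.

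**Figure D2:**
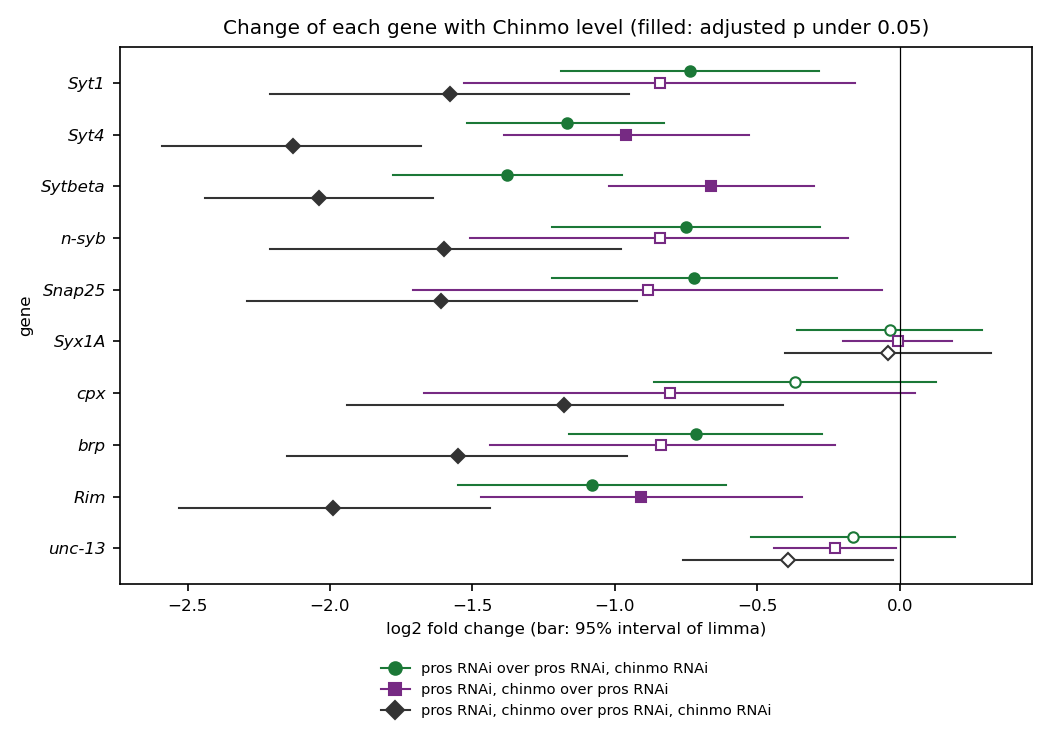
Log2 fold change (x axis) of each release gene (y axis) in the first step (green circles), the second step (purple squares) and over the full range of *chinmo* (black diamonds), with 95% intervals of limma. Filled symbols passed the adjusted threshold. In the second step the intervals of *Syt1*, *n-syb*, *Snap25*, *brp* and *unc-13* leave 0 out but only *Syt4*, *Sytbeta* and *Rim* passed, and all 3 intervals of *Syx1A* span 0.

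Counted by overlap, 7 of 10 genes had every library lower in the first step, 8 of 10 in the second and 9 of 10 over the full range, beside 25.8%, 22.2% and 28.7% of all genes. The second step had fewer calls than separated genes, and its standard errors were larger than those of the first step for *Syt1*, *Syt4*, *n-syb*, *Snap25*, *cpx*, *brp* and *Rim*. Whether the steps differed was tested directly as a contrast in the 9 libraries. None of the 10 genes passed with limma (0 called, 1 with an unadjusted p under 0.05), with edgeR (0) or with DESeq2 (0), against 6.92% of all genes with limma in either direction. The changes in the 2 steps were -0.74 and -0.84 for *Syt1*, -0.75 and -0.84 for *n-syb* and -0.72 and -0.84 for *brp*. This likeness depended on single libraries. With 1 library left out the difference ran from -0.32 to 0.30, -0.31 to 0.31 and -0.32 to 0.23 for these genes. Without replicate C of both *nab>prosRNAi* and *nab>prosRNAi, chinmo*, each of them fell less in the second step than in the first.

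The second step rested on replicates that disagreed. In replicate C of *nab>prosRNAi* the 10 genes were above the mean of A and B by a median of 0.54 on the log2 scale, and 10 of 10 were higher. In replicate C of *nab>prosRNAi, chinmo* the median was -0.75, with 1 of 10 higher, *unc-13* by 0.04. Deviations were largest for *cpx*, 0.71 and -1.16, and *Snap25*, 0.77 and -1.03, and small for *Syx1A*, 0.02 and -0.11. All genes had medians of -0.03 and -0.01 in these libraries. Muscle markers moved in the same direction: 6 of 6 were measured, their summed normalized counts were 4571 to 5218 in A and B of *nab>prosRNAi* and 11515 in C, and 3318 to 6322 in A and B of *nab>prosRNAi, chinmo* and 1131 in C. The sum of 5 neuron markers deviated by 0.30 and -0.66, and within it *nrv3* by 0.68 and -1.23, but *elav* by -0.18 and 0.11. Summed markers of glia (0.42 and -0.51) and peptidergic cells (0.35 and -0.32) deviated in the same directions as well. Those of hemocytes (0.88 and -0.32) did too, but in *nab>prosRNAi, chinmo* C, 3709, lay between A, 7585, and B, 2809. Sums of salivary gland (1.60 and 0.92) and fat body (0.91 and 0.96) were above the log2 mean of A and B in both replicates C. There A and B differed widely. In *nab>prosRNAi, chinmo* the fat body sums were 115829, 11996.4 and 72376.5 in A, B and C, and the salivary gland sums 110, 33.2 and 116. What part RNA of these tissues had in the result was not tested. With both libraries left out, *Syt4*, *Sytbeta*, *Rim* and *n-syb* (4 of 10) fell in the second step, against 10.3% of all genes in that fit, with changes of -0.65, -0.42, -0.49 and -0.35, beside -0.96, -0.66, -0.91 and -0.84 in all libraries.

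**Figure D3:**
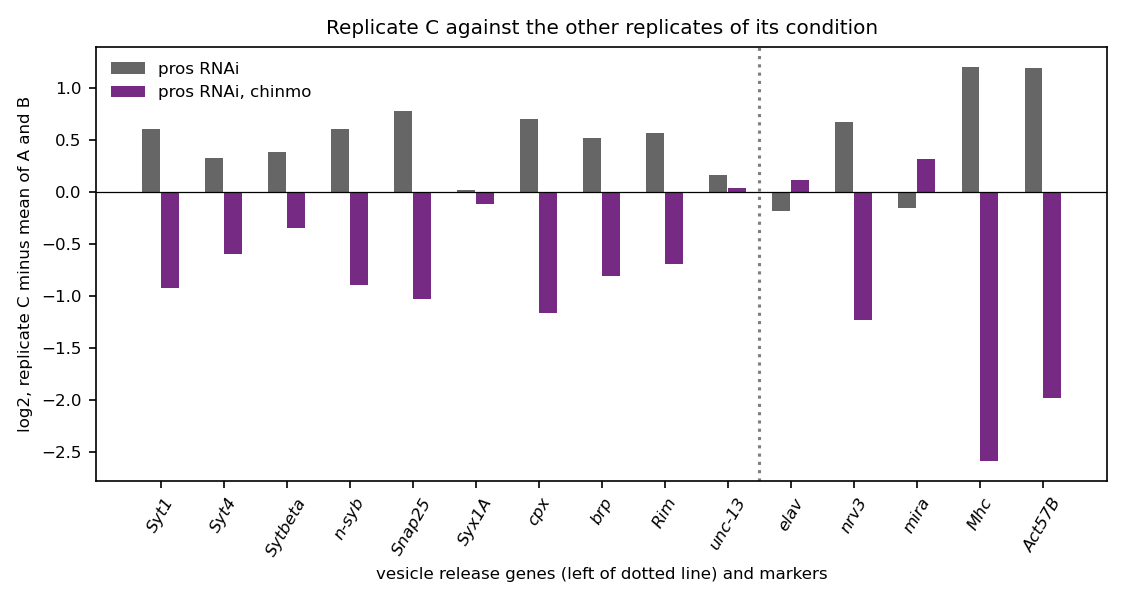
Log2 difference (y axis) of replicate C from the mean of replicates A and B in *nab>prosRNAi* (grey bars) and *nab>prosRNAi, chinmo* (purple bars), for the 10 release genes and, right of the dotted line, the neuron markers *elav* and *nrv3*, the NB marker *mira* and the muscle genes *Mhc* and *Act57B*. Release genes other than *unc-13* point up in *nab>prosRNAi* and down in *nab>prosRNAi, chinmo*, by little in *Syx1A*, and *nrv3*, *Mhc* and *Act57B* do the same. *elav* and *mira* point the opposite way in both genotypes.

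The replicates of *nab>prosRNAi, chinmoRNAi* differed by transcript length. Their deviations from the genotype mean followed exon length with Spearman coefficients across genes of 0.434, 0.565 and -0.681 in A, B and C, and the coefficients of the other 6 libraries were within 0.08 of 0. Release genes ran from 2282 exon bases for *Snap25* to 22598 for *unc-13*. With the trend on length removed from each library, 7, 2 and 8 of 10 genes were called in the first step, the second step and over the full range, against 19.9%, 6.97% and 23.1% of all genes, and the full-range change of *unc-13* was 0.01.

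Levels can be set side by side between genes only per length. In *nab>prosRNAi, chinmoRNAi*, *n-syb* led with 3719 normalized counts per kb of merged exons (3109 to 4499 over the 3 libraries), followed by *Syt4* with 2545 and *Syt1* with 1656. *unc-13* with 1086, *cpx* with 1077 and *Snap25* with 1013 came next with ranges that overlapped. *brp* with 803, *Syx1A* with 612, *Sytbeta* with 563 and *Rim* with 518 closed the order, and each of these neighbours overlapped. In *nab>prosRNAi, chinmo*, *n-syb* still led with 1265 (805 to 1555), but *unc-13*, 820 (735 to 892), came next with a range that overlapped. *Syx1A*, 589 (549 to 660), came after it and could not be told from *Syt4* with 585, *Syt1* with 574 and *cpx* with 509 by their ranges. *Snap25* with 351 and *brp* with 280 followed, and *Sytbeta* with 136 and *Rim* with 132, which overlapped each other, were lowest. Levels per kb in *nab>prosRNAi* lay between for the genes that fell, from 2225 for *n-syb* to 216 for *Sytbeta*.

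**Figure D4:**
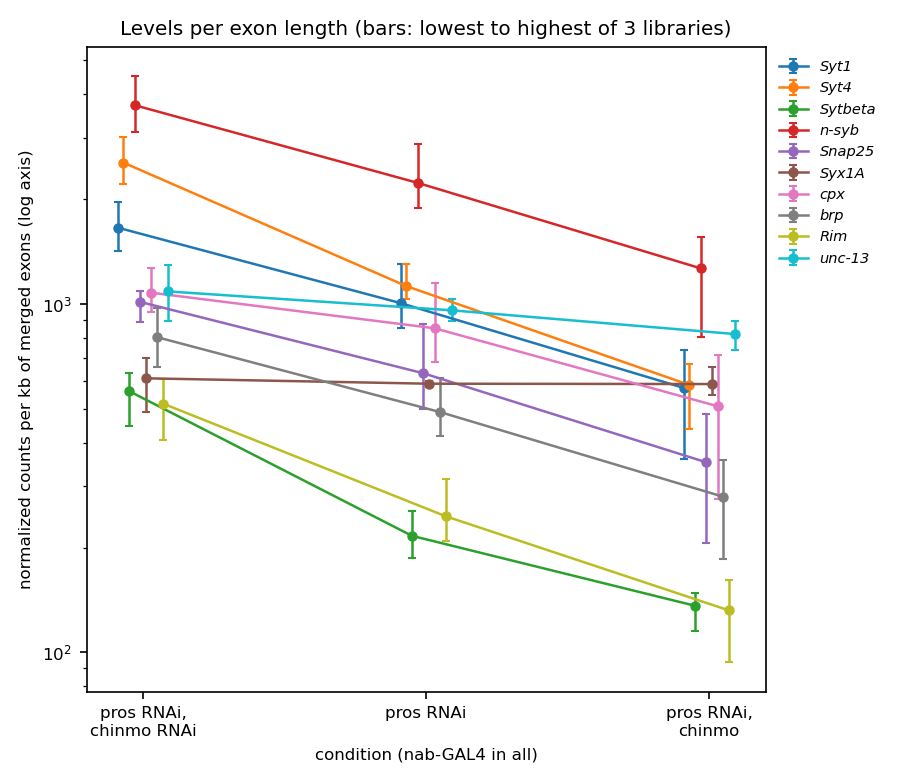
Normalized counts per kb of merged exons (y axis, log scale) of the 10 release genes in the 3 genotypes (x axis). Points are means and bars run from the lowest to the highest of the 3 libraries. The order of means changes because *Syx1A* stays nearly level and *unc-13* drops less than the others. Their means thus move from places 8 and 4 to 3 and 2. In *nab>prosRNAi, chinmo* the range of *Syx1A* overlaps those of *Syt4*, *Syt1* and *cpx*.

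Across the 9 libraries the 8 genes other than *Syx1A* and *unc-13* had Pearson correlations with each other of 0.803 to 0.999 (median 0.969 over 28 pairs, on log2 values). Points share genotype and library composition, so this is a description. The correlation with the mean of the 10 genes was 0.46 for *Syx1A* and 0.87 for *unc-13*. The 5 genes whose levels were most like that mean, among genes with a mean of at least 50, were *Hk*, a potassium channel beta subunit (r = 0.995), *ths*, an FGF ligand (0.995), *Nmdar2*, an NMDA receptor subunit (0.994), *tutl*, a cell surface immunoglobulin protein (0.994), and *GABA-B-R1*, a metabotropic GABA receptor (0.994).

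The release genes were next set against the neurons themselves. Neuron markers (*elav*, *fne*, *futsch*, *Appl*, *nrv3*) fell in 4, 2 and 5 of 5 genes in the first step, the second step and over the full range. The shares of all genes that fell were 17.9%, 8.26% and 22.7%. Medians of the neuron markers were -0.76, -0.81 and -1.59. NB markers (*mira*, *ase*, *dpn*, *wor*, *insc*) rose in 5, 0 and 4 of 5 genes, and 1 fell in the second step. For genes that rose in these fits, here and in the lists below, no share of all genes is given. The neuron marker medians lie beside -0.73, -0.84 and -1.59 for the release genes. In bulk VNCs, fewer neurons and less of these RNAs per neuron cannot be told apart. When each library was scaled to the mean log2 level of the 5 markers, a choice made after the values had been seen, the medians of the release genes became 0.06, -0.08 and -0.03, beside 0.74, 0.74 and 1.52 for all genes.

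On that scale *Syt4* and *Sytbeta* remained lower in the first step, by 0.38 (limma adjusted p = 0.0375) and 0.58 (adjusted p = 0.0102), 2 of 10 genes against 4.54% of all genes. *Syt4* alone was lower over the full range, by 0.58 (adjusted p = 0.0441), 1 of 10 against 3.08%. The scale is a mean of markers that differed. Unscaled, they ran from -1.13 for *fne* to -0.31 for *futsch* in the first step, beside -1.17 for *Syt4* and -1.38 for *Sytbeta*. Over the full range they ran from -1.89 to -0.86, beside -2.13 for *Syt4*. Whether *Syt4* or *Sytbeta* fell more than any single marker was not tested. *Syx1A* and *unc-13* were higher relative to the markers in the first step, by 0.76 and 0.63 (limma adjusted p = 0.00288 and 0.00807), and over the full range, by 1.51 and 1.16 (adjusted p = 0.000313 and 0.00434). These shares of 2 of 10 are below the background of 51.2% and 64.4% of genes that were higher on this scale. In the second step *Syx1A* (0.75, limma adjusted p = 0.0353) was the 1 gene higher, against 39.8%. The other 6 genes, *Syt1*, *n-syb*, *Snap25*, *cpx*, *brp* and *Rim*, did not pass in any comparison on this scale.

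Other genes of the pathway, in lists written with earlier results of these data known, were compared in the same way, beside shares of all genes that fell of 17.9%, 8.26% and 22.7% in the first step, the second step and over the full range. Of 14 partners at the active zone, 10 fell in the first step, 3 in the second and 11 over the full range (median -1.38), and 0 rose. The kinase gene *srpk79D*, which keeps Bruchpilot from assembling in axons, fell in each step, with changes of -0.99 and -0.97 (limma adjusted p = 0.00280 and 0.00673). *Ca-beta*, a calcium channel subunit, and *unc-104*, the kinesin that carries vesicle precursors, fell over the full range, with changes of -1.79 and -1.69 (adjusted p = 0.00197 and 0.00164). *cac*, which encodes the presynaptic calcium channel itself, changed by 0.24 (SE 0.155, adjusted p = 0.254) and the scaffold gene *Liprin-alpha* by -0.13 (SE 0.138, adjusted p = 0.499). *Nrx-1*, a presynaptic adhesion gene, fell by 0.81 in the first step (adjusted p = 0.0182), and its second step was 0.37 (adjusted p = 0.150).

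Of 13 regulators of priming and SNAREs, 8, 2 and 11 fell in the 3 comparisons (full-range median -0.76). *Syn*, the gene of the vesicle phosphoprotein Synapsin, *Rph*, the rabphilin gene, and *Rab3*, a vesicle GTPase, fell over the full range, with changes of -1.61, -1.48 and -1.46 (limma adjusted p = 0.00251, 0.000307 and 0.00618). *comt*, which encodes the NSF ATPase that takes SNARE complexes apart, was at -0.11 (adjusted p = 0.578). *Csp*, the cysteine string protein gene of a vesicle chaperone, was the 1 gene that rose in any comparison: 9585 to 10614 normalized counts in *nab>prosRNAi* and 11486 to 13702 in *nab>prosRNAi, chinmo* (0.30, limma adjusted p = 0.0416).

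Vesicular transmitter transporters fell in 5 of 5 genes in the first step and over the full range, and in 0 of 5 in the second (median -1.85 over the full range), where the lowest adjusted p of limma was that of *VGlut*, 0.0757. *prt*, *VGAT* and *VGlut* changed by -2.20, -1.87 and -1.85 over the full range, and all of them fell. The other 5 synaptotagmin genes fell in 2, 1 and 3 cases. *Syt7*, *Sytalpha* and *Syt14* fell over the full range, with changes of -1.89, -1.56 and -0.94 (limma adjusted p = 0.00328, 0.00376 and 0.00196), while *Syt12* was at -0.67 and *Esyt2* at 0.21 (adjusted p = 0.228 and 0.328).

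General SNAREs, which serve membrane traffic in all cells, fell in 4, 1 and 5 of 21 genes, shares near those of all genes, and 1, 0 and 2 rose (median -0.18 over the full range). Ubiquitous paralogs of *n-syb* and *Snap25*, named after their values were seen, did not pass the threshold over the full range. *Syb* had 4076 to 6417, 4436 to 5115 and 4853 to 5329 normalized counts in *nab>prosRNAi, chinmoRNAi*, *nab>prosRNAi* and *nab>prosRNAi, chinmo*, a full-range change of 0.01 (SE 0.165, limma adjusted p = 0.974) beside -1.60 for *n-syb*. *Snap24* had 2561 to 2821, 2793 to 2953 and 2825 to 2939, a change of 0.08 (SE 0.086, adjusted p = 0.475) beside -1.61 for *Snap25*. *Syx13*, an endosomal syntaxin gene, fell by 1.38 in the first step (adjusted p = 0.000932) and was at 0.39 in the second (adjusted p = 0.0543). *Syx6* and *CG1599*, the gene of a Vamp7 protein, fell over the full range, with changes of -0.79 and -0.76 (limma adjusted p = 0.00366 and 0.00205).

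Vesicle endocytosis genes fell in 3, 1 and 10 of 13 tested, so that only the full-range count was well above the share of all genes, and the sizes were small (full-range median -0.38). Of the 16 genes listed, *AP-2alpha* was not matched and *stnA* and *stnB* are listed at 0 in each library. *nwk*, a membrane-bending adaptor, fell over the full range (-1.48), as did *lap*, the AP180 gene (-0.69), and *Dap160*, the intersectin gene (-0.61; limma adjusted p = 0.00469, 0.00329 and 0.0141). With the length trend removed, 7 of these 13 fell and 3 rose over the full range.

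**Figure D5:**
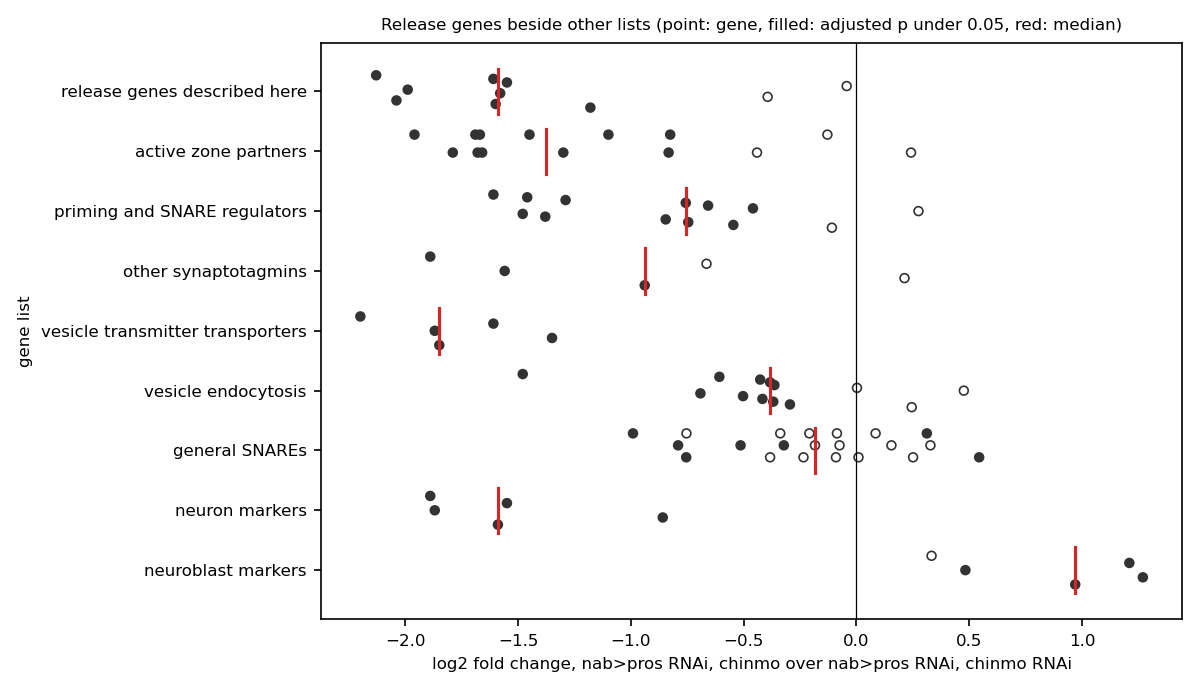
Log2 fold change from *nab>prosRNAi, chinmoRNAi* to *nab>prosRNAi, chinmo* (x axis) for the release genes and 8 other lists (y axis). Each point is a gene, filled where the adjusted p-value passed, and the red line is the median, which is -1.59 for the release genes and for the neuron markers, -0.18 for general SNAREs and 0.97 for NB markers. Points are offset vertically only for visibility.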

How the data were processed

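The authors deposited 1 table of normalized counts for 15340 genes in 9 libraries (a signal unit: reads divided by a DESeq size factor). Per the paper's methods and the submitters' processing notes, single reads of stranded poly-A libraries were aligned with TopHat2 2.0.9 and Bowtie2 2.1.0 to dm3, counted per gene and strand with HTSeq 0.5.3p9 and normalized with DESeq (1.2.5 in the notes). Poly-A selection leaves out RNA without a tail, and union counting leaves out reads shared by overlapping genes. All values (100%, tolerance 0.001) were whole multiples of 1 read, so reads were recovered. Replicates are 3 separate collections per genotype, grouped by the labels. Replicates differed by far more than sampling noise (chi-square per degree of freedom 26.5 to 275).

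limma 3.58.1 in R 4.3.3 was run on log2(value + 1), a pseudocount of 1 that understates changes of low genes, for genes with a summed value of 15 or more over the 6 libraries compared, with a mean-variance trend. The difference between the steps was a contrast in 9 libraries. edgeR 4.0.16 and DESeq2 1.42.0 were alternatives on recovered reads, beside other pseudocounts, filters, scalings, a replicate block, removal of a length trend and libraries left out. Genes were matched to a later annotation by gene ID, or by symbol where the table had no ID (14942 genes). Chromosomes came from this match, and lengths from the exons of the gene with the matched symbol. No coordinates are given. Scripts were tested on simulated data. Named genes are the 10 release genes, label checks and, per list, up to 3 genes with the largest called full-range change. *cac*, *Liprin-alpha*, *Nrx-1*, *comt*, *Csp*, *Syt12*, *Esyt2*, *Syb* and *Snap24* were named after their values were seen. The release genes and lists were chosen with earlier results of these data known. Glia, peptidergic, muscle, salivary gland, fat body and hemocyte markers were also measured. Over the full range 4 of 6, 3 of 3, 1 of 6, 2 of 6, 3 of 5 and 2 of 3 fell, against 22.7% of all genes, and 1 glial gene rose.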

Additional observations from a re-analysis of the deposited data

Results flagged for a closer look

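Of the genes named by the rule, 5 changed differently in the 2 steps of *chinmo* RNA, by the limma contrast in 9 libraries. *chinmo* itself rose more in the second step, by 2.58 on the log2 scale (SE 0.226, adjusted p = 0.000451), a step that adds the transgene. The NB markers *mira*, *dpn* and *ase* had differences of -1.41 (adjusted p = 0.0117), -0.93 (adjusted p = 0.0277) and -0.88 (adjusted p = 0.0185), since they rose in the first step and did not rise in the second. In the second step *mira* fell, with a change of -0.463 (limma adjusted p = 0.0489). *Syx13*, the endosomal syntaxin gene, had a difference of 1.77 (SE 0.254, limma adjusted p = 0.00479), with 1637 to 2308, 667 to 784 and 826 to 1019 normalized counts in *nab>prosRNAi, chinmoRNAi*, *nab>prosRNAi* and *nab>prosRNAi, chinmo*. None of the 10 release genes was among them, and no genotype has the 4 libraries needed to test a single library as an outlier.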

How the results depend on the processing

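Counts of release genes that fell moved most for the second step. In the first step, 7 became 3 with eBayes without a trend and 3 in a fit of all 9 libraries, and 3 to 8 when 1 library was left out (3 without A or B of either genotype, 6 without C of *nab>prosRNAi, chinmoRNAi*, 8 without C of *nab>prosRNAi*). In the second step, 3 became 1 without a trend, 7 with DESeq2 and 2 with edgeR, and 0 to 2 with 1 library left out (0 without B of *nab>prosRNAi*). Over the full range, 8 became 7 to 9 with 1 library left out, 8 with edgeR and 9 with DESeq2. The shares of all genes called in these fits are not set beside the counts. A count that moved therefore cannot be read as a result about the release genes alone. Relative to neuron markers, the counts were 2, 0 and 1 (this scaling and the removal of both replicates C were chosen after seeing the data). With the letter as a replicate block, 5, 0 and 8 genes fell. Deviations of libraries of different genotypes with the same letter had correlations of both signs (-0.538 to 0.484), and the main fits did not pair libraries by letter. Whether the letters mark shared collections cannot be told from these correlations. The block left 45 of all genes lower in the second step in place of 913. *Syt4*, *Sytbeta* and *Rim* passed in the first step under all 19 alternatives that did not scale to neuron markers. On that scale *Syt4* and *Sytbeta* passed in the first step and *Rim* did not. The cause of the changes in these counts was not tested, beyond fewer libraries in the fits that leave 1 out. Scaling to the same total called 1620 of all genes lower in the second step, and 3 release genes.

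Within the comparisons, signs changed only for values of *Syx1A* and *unc-13* near 0 and relative to neuron markers. Relative to the markers, first-step values were 0.0564 for *Syt1*, 0.0402 for *n-syb*, 0.757 for *Syx1A*, 0.0705 for *Snap25*, 0.425 for *cpx*, 0.0755 for *brp* and 0.63 for *unc-13*. Second-step values were 0.10 for *Sytbeta*, 0.75 for *Syx1A* and 0.53 for *unc-13*, and full-range values were 1.51 for *Syx1A*, 0.38 for *cpx* and 1.16 for *unc-13*. With the length trend removed, *Syx1A* was 0.0503, 0.0693 and 0.119 in the 3 comparisons, and *unc-13* 0.0573 and 0.013 in the first step and over the full range. *Syx1A* in the second step was 0.0053 with median-of-ratios rescaling, 0.0261 with edgeR, 0.0097 with DESeq2 and 0.0342 without both replicates C, and over the full range 0.062 with edgeR. Leaving out 1 library gave *Syx1A* -0.187 to 0.0696, -0.0925 to 0.0397 and -0.195 to 0.0616.

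The difference between steps called 0 release genes under all alternatives. Its sign changed in *n-syb* with quantile normalization (0.0158) and in *Syx1A* with the same total (-0.0097), quantile normalization (-0.0097) and neuron markers (-0.0050). Without both replicates C it was 0.61 for *Syt1*, 0.61 for *n-syb*, 0.70 for *Snap25*, 0.42 for *cpx*, 0.50 for *brp* and 0.0317 for *unc-13*. With 1 library left out it was -0.32 to 0.30 for *Syt1*, -0.31 to 0.31 for *n-syb*, -0.0775 to 0.18 for *Syx1A*, -0.46 to 0.35 for *Snap25*, -0.74 to 0.03 for *cpx*, -0.32 to 0.23 for *brp*, -0.0352 to 0.55 for *Rim* and -0.20 to 0.0702 for *unc-13*.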
